A study of Mus musculus with 2 samples.

Results

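Candidate mural cells of skin vessels, the pericytes and smooth muscle cells that wrap the endothelium, were selected on measured values from the skin of E14.5 mouse embryos. A barcode was taken if it was not on the authors' list of dermal cells, had 1000 or more genes and under 10% mitochondrial UMIs, and had at least 4 of 8 mural genes with a UMI (Rgs5, Kcnj8, Abcc9, Notch3, Cspg4, Pdgfrb, Higd1b, Acta2), Rgs5, Kcnj8 or Abcc9 among them. Fewer than 2 of the endothelial genes Pecam1, Cdh5 and Emcn could be present. The gate held 303 mutant and 241 wildtype barcodes, 544 of the 19514 barcodes in both matrices.

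The study compared dorsolateral skin of Wntless mutant embryos with that of wildtype littermates by droplet 3' single-cell RNA sequencing, in 1 library per genotype, each of 2 to 3 pooled embryos. Mutants came from mice carrying K14Cre bred to Wntless fl/fl mice. K14Cre expresses the recombinase from the keratin 14 promoter, which is active in basal keratinocytes, and Wntless (Wls) is the carrier that Wnt proteins need for secretion. Which of these alleles the wildtype littermates carried is not given in the sources used here. With 1 library per genotype there is no replicate check. Every interval below covers counting error only, differences between genotypes are differences between those libraries, and no p-value can be given.

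Pericytes sit in the basement membrane of capillaries and smooth muscle cells ring larger vessels. Endothelial cells recruit them with platelet-derived growth factor B, read by the receptor Pdgfrb on the mural side, and Notch signals between vessel cells act through Notch3 to drive their maturation. Mature smooth muscle cells carry a contractile apparatus of smooth muscle actin, myosin and their regulators, whose genes are switched on by serum response factor and its partner myocardin.

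The gated cells held 8894692 UMIs in the mutant library and 5889530 in the wildtype library, with medians of 27228 and 22400 UMIs per cell. Mutant cells were thus the deeper ones, as also on the dermal list, where 5028 mutant cells had a median of 15566 UMIs and 5300 wildtype cells 11154. The mutant and wildtype gated cells had medians of 2.72% and 1.90% mitochondrial UMIs. No gated barcode occurred in both libraries, against 19 shared barcodes over all. Wls, the targeted gene, stood at 7.37 CPM (31 UMIs) in mutant barcodes with keratinocyte markers, against 121.6 CPM (1092 UMIs) in wildtype ones. In the gated cells it stood at 62.7 CPM in mutants and 54.2 CPM in wildtypes, a log2 ratio of 0.21 (0.01 to 0.42). CPM are UMIs summed over the cells of a class and scaled to 1e6 UMIs of that class.

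Part of the gate only lay in clusters with Rgs5 above 100 CPM and lower fibroblast marker sums. Rgs5, Kcnj8, Abcc9 and Acta2 helped to choose the cells, and Rgs5 also set the name of the clusters. Their levels here are a description and give no support to the mural label. Clustering of the 544 cells gave 8 clusters, numbered 0 to 7. Clusters 0, 3, 4 and 5, with 304 cells, had Rgs5 above 100 CPM and are called the Rgs5-high clusters below. Cluster 4 (68 cells) was led by Des, Rgs5, Ndufa4l2, Kcnj8 and Abcc9, of which 3 are selecting genes, and 95.6% of its cells had an Rgs5 UMI. Cluster 5 (50 cells) was led by the smooth muscle genes Actg2, Myh11, Tagln, Acta2 and Mylk, and 98.0% of its cells had Rgs5. Clusters 0 (100 cells) and 3 (86 cells) were led by histone genes and by mitotic genes such as Cdc20 and Ccnb1, with Rgs5 in 86.0% and 51.2% of cells.

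The other clusters did not reach Rgs5 above 100 CPM and had higher fibroblast marker sums. Rgs5 was found in 29.3% of the 92 cells of cluster 1, 18.6% of the 86 of cluster 2 and 12.2% of the 49 of cluster 6. In clusters 1 and 2 the fibroblast markers Pdgfra, Col1a1, Col3a1, Dcn, Lum and Twist2 summed to 9460.3 and 8999.4 CPM, against 1272.9 to 2410.6 CPM in the Rgs5-high clusters. Their leading genes were Cpa3, Col14a1, Penk and Fbln2 in cluster 1 and Clec3b, Lsp1, Igf1 and Postn in cluster 2. Cpa3 rested on few cells, with 87.0% of its mutant and 97.99% of its wildtype UMIs in 3 gated cells each. Cluster 7, of 13 cells, was led by haemoglobin genes. The 544 cells are therefore called the gated cells here, and results are given for all of them and for the Rgs5-high clusters, 169 mutant and 135 wildtype cells. These clusters were defined on the same counts, so their leading genes are a description.

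**Figure D1:**
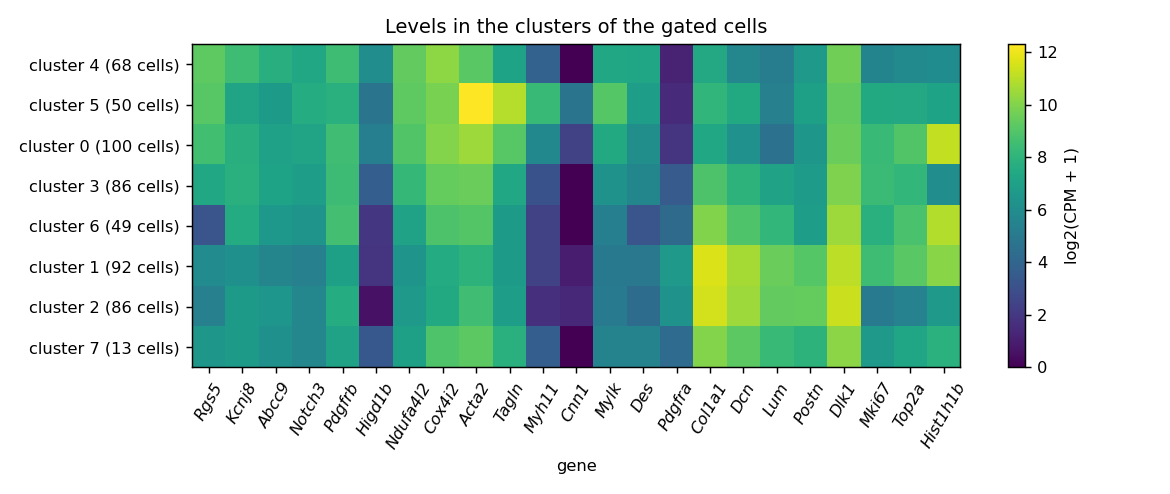
Level of each gene (columns, log2 of CPM + 1 on the colour scale) in each cluster of the gated cells (rows), both genotypes summed. Clusters 4, 5, 0 and 3 at the top have high Rgs5, and clusters 1 and 2 have high Col1a1, Dcn and Lum, with fibroblast markers summing to 9460.3 and 8999.4 CPM.

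Values on either side of the gate's edge are given as a description. Off the dermal list, the 69 mutant and 55 wildtype barcodes with exactly 3 of the 8 mural genes, just outside, had Rgs5 in 1.45% and 1.82% of cells. Just inside, the 70 mutant and 37 wildtype barcodes with 4 of them had Rgs5 in 11.4% and 5.41%. Rgs5 is itself counted among the 8. Fibroblast markers, which the gate did not use, summed to 10783.8 CPM in mutant and 7780.8 CPM in wildtype barcodes with 4 mural genes, and to 1867.9 and 1502.3 CPM in mutant and wildtype barcodes with all 8. On the dermal list itself, 118 mutant cells and 38 wildtype cells met the count of mural genes, and none of these had an Rgs5 UMI.

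Gated cells made up 4.11% (3.67 to 4.59) of the 7373 mutant barcodes that met the quality limits and 3.10% (2.73 to 3.51) of the 7764 wildtype ones, with exact Clopper-Pearson 95% intervals. Barcodes with 2 or more endothelial genes made up 1.29% in mutants and 0.850% in wildtypes. Gated cells were 76.1% (71.6 to 80.2) of gated plus endothelial barcodes in mutants and 78.5% (73.5 to 83.0) in wildtypes, and these intervals overlapped. The direction of the first share turned under an alternative that left out barcodes under 17500 UMIs and thinned the rest to that number before the gate. It passed 6.21% of 3480 mutant barcodes and 10.8% of 1564 wildtype ones, and leaving out shallow barcodes and thinning cannot be told apart here.

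The genes that chose the cells are given as a description, since their levels in and out of the gate follow from the choice. Rgs5, a regulator that shortens G protein signalling (GRCm38 chr1:169655501-169695813), stood at 255.1 CPM in mutant and 181.2 CPM in wildtype gated cells, and at 0.173 and 0.143 CPM on the mutant and wildtype dermal lists. Kcnj8 and Abcc9 encode the pore and the sulfonylurea receptor of one ATP-sensitive potassium channel and lie beside each other on chromosome 6. Kcnj8 stood at 175.3 and 174.0 CPM in mutant and wildtype gated cells, and Abcc9 at 113.2 and 104.1 CPM. Pdgfrb stood at 266.1 CPM in mutants and 287.8 CPM in wildtypes, against 80.8 and 66.3 CPM on the mutant and wildtype dermal lists. Higd1b had no UMI on either dermal list or in either endothelial class, and 171 UMIs in mutant and 112 in wildtype gated cells. Acta2, smooth muscle actin, stood at 1072.2 CPM in mutants and 914.8 CPM in wildtypes, against 12.2 and 21.8 CPM on the dermal lists.

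**Figure D2:**
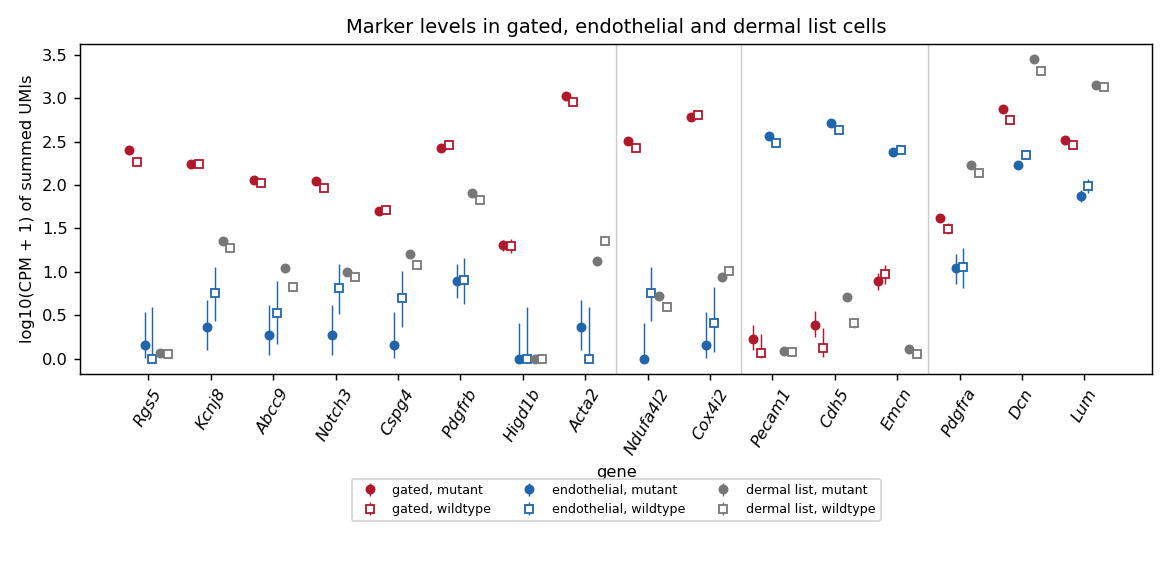
Level of marker genes in gated, endothelial and dermal list cells, as log10 of CPM + 1, mutant filled and wildtype open, with 95% Poisson bars. Rgs5 stands at 255.1 and 181.2 CPM in mutant and wildtype gated cells and under 1 CPM on the dermal lists, while Dcn, a fibroblast gene, stands at 757.5 and 557.3 CPM in gated cells and at 2829.9 and 2059.1 CPM on the dermal lists.

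Beyond the selecting genes, the gated cells stood apart from the dermal list by a set of vessel-wall genes. Of 7666 genes measured, with a mean of 10 CPM or more in both libraries, 239 (3.12%) were at least 2-fold higher in gated cells in both libraries and 358 (4.67%) at least 2-fold lower. Because the members were chosen on the same counts, these are descriptions of the class and no test was run. Of 25 listed pericyte genes 14 were measured, 8 were higher and 1 was lower, with median log2 ratios of 3.68 in the mutant and 3.83 in the wildtype library, against 0.003 and -0.05 over all genes.

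Gucy1a1 and its neighbour Gucy1b1 encode the subunits of the nitric oxide receptor guanylate cyclase. Gucy1a1 (chr3:82092427-82145789) stood at 307.9 CPM in mutant gated cells against 1.37 CPM on the mutant dermal list, a log2 ratio of 7.82 (7.54 to 8.10). In the wildtype library the values were 328.4 and 0.954 CPM, a log2 ratio of 8.43 (8.06 to 8.82). Gucy1b1 had log2 ratios of 5.17 and 5.82 in the mutant and wildtype libraries. Foxs1, a forkhead factor of pericytes, stood at 32.1 CPM in mutant and 33.8 CPM in wildtype gated cells, with 3 and 7 UMIs in all on the dermal lists. Its log2 ratio was 9.77 (8.20 to 12.1) in mutants and 8.25 (7.18 to 9.58) in wildtypes.

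Several of the highest genes are known mainly from other tissues. Cpa1, a carboxypeptidase best known from the pancreas, stood at 43.0 CPM in mutant gated cells (382 UMIs in 132 cells) and 61.0 CPM in wildtype ones (359 UMIs in 121 cells), with 6 and 3 UMIs on the dermal lists. Its log2 ratio was 9.18 (8.05 to 10.6) in mutants and 10.3 (8.76 to 12.6) in wildtypes. Phox2a, a homeobox gene known from autonomic neurons, had 185 UMIs in 91 mutant and 158 in 85 wildtype gated cells, with 4 and 3 UMIs on the dermal lists, and no endothelial UMI. Fabp7, a fatty acid binding protein that is also a Schwann cell marker, had log2 ratios of 7.85 and 7.5 in mutants and wildtypes. The rest of the 15 highest were Art3, Fam162b, Nrarp, Esam, Ndufa4l2, Rasl11a, Itga7, Nr2f1, Cox4i2 and Rasl12, each with log2 ratios above 6 in both libraries. Nrarp and Esam were also well expressed by endothelial barcodes, Esam at 229.4 CPM in mutants and 236.4 CPM in wildtypes.

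For some of these genes a close relative did not pass 2-fold. Ndufa4l2, a respiratory chain subunit variant known from pericytes, stood at 323.0 and 268.8 CPM in mutant and wildtype gated cells and 4.26 and 2.96 CPM on the dermal lists. Its relative Ndufa4 had log2 ratios of -0.34 and -0.36 in the same libraries. Cox4i2, a cytochrome oxidase isoform, stood at 607.6 and 642.8 CPM in mutant and wildtype gated cells and 7.66 and 9.35 CPM on the dermal lists, while Cox4i1 had log2 ratios of 0.15 and 0.12. Higd1a, the relative of Higd1b, had log2 ratios of -0.34 and -0.33.

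By role, counts are set beside all genes, of which 3.12% were 2-fold higher and 4.67% 2-fold lower in gated cells. The contractile list had 8 of 17 measured genes higher and 1 lower in gated cells. The actin-binding proteins Tagln, at log2 ratios of 5.46 in mutants and 5.14 in wildtypes, and the myosin kinase Mylk, at 4.16 and 4.11, stood highest. Of 11 vasoactive receptor and cyclic GMP genes, 7 were higher and 1 lower, among them the adrenergic receptor Adra2a (4.36 and 5.66 in mutants and wildtypes). Of 11 Notch pathway genes 5 were higher, among them the target Heyl (6.58 and 5.33) and the ligand Jag1 (2.60 and 2.84). Of 23 basement membrane and integrin genes 5 were higher and 1 lower, and Col4a1, a chain of the main basement membrane collagen, stood at 743.9 and 689.0 CPM in mutant and wildtype gated cells and 159.8 and 171.8 CPM on the dermal lists. Of 28 transcription factors 8 were higher and 4 lower, with Nr2f1 (6.14 and 6.83), Nr2f2 (4.12 and 4.03), Ebf2 (3.47 and 4.56) and Tbx2 (3.33 and 3.77) beside Foxs1.

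The dermal programme was lower in the gated cells, where 3.12% of all genes were 2-fold higher and 4.67% 2-fold lower. None of 20 measured fibroblast genes was 2-fold higher and 15 were 2-fold lower, with medians of -1.53 and -1.56 in the mutant and wildtype libraries. Of 19 Wnt ligands, receptors and modulators, 10 were lower and none higher. The 5 lowest genes were Lix1, Wif1 (a secreted Wnt inhibitor), Egfl6, Penk and Sp5 (a Wnt target), and Sp5 had log2 ratios of -4.05 in mutants and -2.95 in wildtypes. When only the Rgs5-high clusters were set against the dermal list, 630 genes were 2-fold lower. In that setting Sp5 stood at log2 ratios of -6.37 and -5.08 in mutants and wildtypes, and Penk at -5.66 and -6.10.

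**Figure D3:**
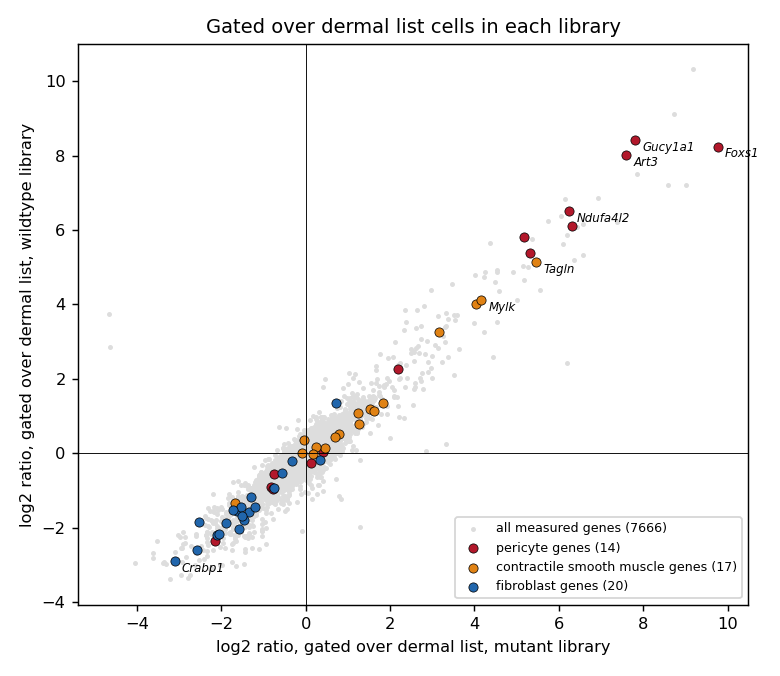
Log2 ratio of gated over dermal list cells for each measured gene, mutant library on the horizontal and wildtype library on the vertical axis. The 14 pericyte genes have medians of 3.68 and 3.83, and the 20 fibroblast genes medians of -1.53 and -1.56.

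Several partners in vessel signalling were divided between the gated and endothelial classes and others were not. Pdgfb, the ligand that recruits mural cells, stood at 10.5 and 5.43 CPM in mutant and wildtype gated cells, against 68.3 and 64.9 CPM in mutant and wildtype endothelial barcodes. Its receptor Pdgfrb is among the selecting genes and is not used here. Angpt1, a mural ligand, stood at 39.6 and 25.1 CPM in mutant and wildtype gated cells and 1.30 and 3.16 CPM in endothelial ones. On the mutant and wildtype dermal lists Angpt1 stood at 3.19 and 3.61 CPM. Its endothelial receptor Tek stood at 3.37 and 0.849 CPM in gated cells against 46.7 and 55.4 CPM in endothelial ones. The endothelial Notch ligand Dll4 had 2 UMIs in mutant and 0 in wildtype gated cells, against 43.2 and 30.8 CPM in endothelial barcodes. Ednra, the endothelin receptor of smooth muscle, stood at 72.4 and 54.8 CPM in mutant and wildtype gated cells and 2.59 and 4.75 CPM in endothelial ones. On the mutant and wildtype dermal lists Ednra stood at 18.3 and 41.7 CPM. Of the sphingolipid receptors, S1pr3 stood at 72.3 and 60.3 CPM in mutant and wildtype gated cells and 6.91 and 7.12 CPM in endothelial ones. S1pr3 stood near its gated level on the mutant and wildtype dermal lists too, at 69.7 and 59.8 CPM. S1pr1 stood at 8.32 and 4.75 CPM in mutant and wildtype gated cells and 94.6 and 81.5 CPM in endothelial ones. Notch1 stood at 86.8 and 79.1 CPM in mutant and wildtype gated cells and 99.4 and 93.3 CPM in endothelial ones. The chemokine receptor Cxcr4 stood at 14.8 and 23.8 CPM in mutant and wildtype gated cells and 18.6 and 20.6 CPM in endothelial ones. The Notch ligand Jag1 stood at 43.9 and 27.9 CPM in mutant and wildtype gated cells and 24.6 and 17.4 CPM in endothelial ones.

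Between genotypes, contractile genes of smooth muscle stood higher in the mutant library. Of 10449 genes that reached 50 UMIs in the summed libraries, 687 (6.57%) were at least 1.5-fold higher in mutant gated cells and 193 (1.85%) at least 1.5-fold lower, with a median log2 ratio of 0.03. For 164 of them the counting interval included 0. Of 25 measured contractile genes 9 were higher in the mutant and none lower, with a median of 0.36. On the dermal lists, where 1211 of 14138 genes were higher (8.57%) and 631 lower (4.46%), 4 of 21 were higher and 1 lower, with a median of 0.04. In the Rgs5-high clusters, where 481 of 8703 genes were higher (5.53%) and 241 lower (2.77%), 12 of 24 contractile genes were higher and none lower, with a median of 0.58.

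Myh11, the smooth muscle myosin heavy chain (chr16:14194535-14291372), had 475 UMIs in mutant and 112 in wildtype gated cells, or 53.4 and 19.0 CPM. Its log2 ratio was 1.49 (1.19 to 1.80), and 1.45 (1.14 to 1.77) in the Rgs5-high clusters. Myocd, the myocardin gene itself, had 86 UMIs in mutants and 18 in wildtypes, a log2 ratio of 1.66 (0.92 to 2.48). Pdlim3, a Z-disc protein, had 72 and 12 UMIs in mutants and wildtypes, a log2 ratio of 1.99 (1.10 to 3.01). Mustn1, a small muscle gene, had 56 UMIs in mutants and 7 in wildtypes, the 7 lying in 3 cells.

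More abundant members of the list differed by less. Mylk stood at 142.8 CPM in mutants and 83.4 CPM in wildtypes, a log2 ratio of 0.78 (0.62 to 0.93), and Des, the muscle intermediate filament, at 67.2 and 39.1 CPM, 0.78 (0.56 to 1.01). Myl9, the regulatory myosin light chain, stood at 563.3 CPM in mutants and 377.1 CPM in wildtypes, a log2 ratio of 0.58 (0.51 to 0.65), and Tagln at 376.9 and 313.8 CPM, 0.26 (0.18 to 0.35). In the Rgs5-high clusters these ratios were 0.92, 0.96, 0.74 and 0.39. Olfr558, an olfactory receptor gene also known from smooth muscle, and Lmod1, an actin nucleator, had log2 ratios of 0.81 and 0.76. Actg2, enteric smooth muscle actin, stood at 32.1 CPM in mutants and 16.0 CPM in wildtypes, a log2 ratio of 1.01 (0.67 to 1.36).

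**Figure D4:**
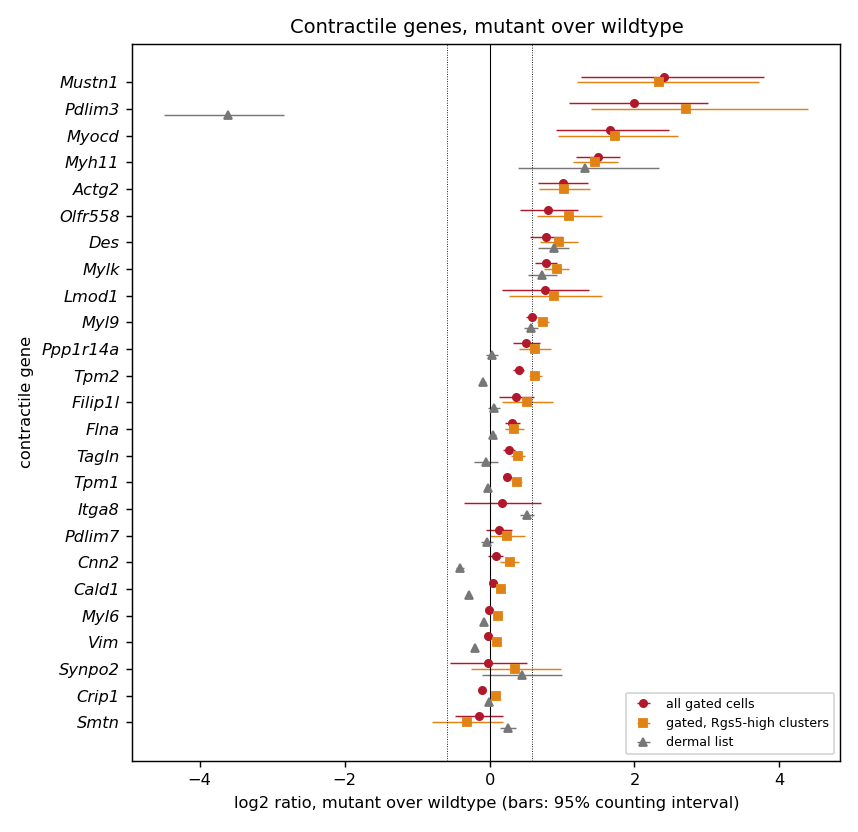
Log2 ratio, mutant over wildtype, of each measured contractile gene in all gated cells, in the Rgs5-high clusters and on the dermal lists, with 95% counting intervals and dotted lines at 1.5-fold. In gated cells 9 of 25 genes lie past the right-hand line and none past the left, and Pdlim3 lies on opposite sides in gated and dermal list cells (1.99 and -3.61).

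The difference depended on which cells were summed. The contractile list summed to 11228 CPM in mutant and 9215.7 CPM in wildtype cells of the Rgs5-high clusters, a log2 ratio of 0.28 (0.26 to 0.31), and to 5724.2 and 6555.3 CPM in the other clusters, -0.20 (-0.22 to -0.17). Within single clusters the sum differed little, from -0.28 in cluster 1 to 0.22 in cluster 4. The same sum stood at 5416.3 and 5813.3 CPM on the mutant and wildtype dermal lists, against 8620.3 and 7942.9 CPM in gated cells. It therefore includes broadly expressed members and does not give the direction of single contractile genes in each cluster. In cluster 5, led by these genes, it was 20256.1 CPM in 37 mutant cells and 20072.1 CPM in 13 wildtype cells, a log2 ratio of 0.01 (-0.03 to 0.06). Cluster 5 held 12.2% of mutant and 5.39% of wildtype gated cells, and cluster 4 held 16.2% and 7.88%. The part of these shares in the differences was not tested. Without cluster 5, 4 of 23 contractile genes were higher, the median was 0.21, and Actg2 had a log2 ratio of -0.17. With every cluster weighted alike the median was 0.08 and 6 of 25 were higher. Within cluster 0, Myh11 stood higher in mutants, with 75.2 CPM in mutant and 22.9 CPM in wildtype cells of cluster 0, a log2 ratio of 1.72 (1.12 to 2.37). In cluster 5 it stood at 349.9 and 270.5 CPM, 0.37 (0.003 to 0.76).

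Serum response factor binds a DNA motif called the CArG box, which the promoters of contractile genes are known to carry. In the 250 bases before the RefSeq start site, 4 of 25 matched contractile genes (16.0%) held a CArG box, against 0 of 19 pericyte genes and 439 of 27025 genes in the table (1.62%). The motif reads the same on either strand, so both are covered by a single search. Those 4 windows, given 5′ to 3′ on the gene's strand in build GRCm38.p6 with the box in capitals, show where it lies relative to the start.
Myl9, chr2:156775214-156775463, plus strand: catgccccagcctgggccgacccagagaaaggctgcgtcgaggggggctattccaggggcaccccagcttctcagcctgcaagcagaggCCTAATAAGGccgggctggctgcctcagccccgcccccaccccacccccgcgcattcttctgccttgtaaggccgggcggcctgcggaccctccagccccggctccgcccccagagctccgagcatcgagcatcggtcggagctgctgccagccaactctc
Cnn2, chr10:79988350-79988599, plus strand: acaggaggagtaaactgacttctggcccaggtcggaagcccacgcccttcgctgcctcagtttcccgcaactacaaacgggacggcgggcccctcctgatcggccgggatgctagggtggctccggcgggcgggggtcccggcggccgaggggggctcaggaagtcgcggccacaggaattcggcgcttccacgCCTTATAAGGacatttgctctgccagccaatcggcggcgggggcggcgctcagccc
Filip1l, chr16:57548992-57549241, plus strand: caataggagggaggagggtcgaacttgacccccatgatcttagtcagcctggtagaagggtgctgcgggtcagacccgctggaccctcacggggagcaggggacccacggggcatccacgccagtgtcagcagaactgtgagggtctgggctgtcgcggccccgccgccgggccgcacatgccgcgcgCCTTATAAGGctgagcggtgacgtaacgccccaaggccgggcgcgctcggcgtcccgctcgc
Myl6, chr10:128493010-128493259, minus strand: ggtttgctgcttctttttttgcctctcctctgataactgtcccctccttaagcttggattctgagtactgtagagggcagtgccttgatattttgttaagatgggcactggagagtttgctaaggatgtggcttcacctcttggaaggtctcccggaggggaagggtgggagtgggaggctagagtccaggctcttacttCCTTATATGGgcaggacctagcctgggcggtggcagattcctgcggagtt
The box begins 161 bases before the start in Myl9, 56 in Cnn2, 62 in Filip1l and 50 in Myl6. Their log2 ratios in gated cells, mutant over wildtype, were 0.58, 0.08, 0.36 and -0.01. No box in a window says only that these bases do not hold it, and distant sites were not searched.

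On the pericyte list members lay on both sides. Of 19 measured genes 3 were higher in mutants and 1 lower, with a median of -0.07, where 6.57% of all genes were higher and 1.85% lower. In the Rgs5-high clusters 4 of 19 were higher and 2 lower, with a median of 0.07, where 5.53% of all genes were higher and 2.77% lower. Vtn, encoding vitronectin, had 185 UMIs in mutants and 56 in wildtypes, a log2 ratio of 1.13 (0.69 to 1.59), and 1.39 in the Rgs5-high clusters. Gja4, the gap junction protein connexin 37, had 205 and 84 UMIs in mutants and wildtypes, 0.69 (0.32 to 1.08). Postn stood at 350.3 CPM in mutants and 166.1 CPM in wildtypes, 1.08 (0.97 to 1.18), and is also a leading gene of the fibroblast-rich cluster 2. Nr1h3, the lower one in all gated cells, had 48 UMIs in each library, -0.59 (-1.20 to 0.01). The channel genes and Pdgfrb, which chose the cells, had log2 ratios of 0.01 (Kcnj8), 0.12 (Abcc9) and -0.11 (Pdgfrb), and Rgs5 0.49, as a description.

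Igfbp5, a secreted binding protein of insulin-like growth factors, was among the abundant genes with a wide difference. It stood at 371.0 CPM in mutant and 185.9 CPM in wildtype gated cells, a log2 ratio of 1.0 (0.90 to 1.10), and at 345.5 and 113.3 CPM in the Rgs5-high clusters, 1.61 (1.44 to 1.78). In each of clusters 0, 3, 4 and 5 the ratio lay between 1.28 and 1.63. In cluster 2 it was 0.06 (-0.17 to 0.29). The dermal lists showed the same direction, with a log2 ratio of 1.20. Its relative Igfbp7 stood at 248.2 CPM in mutants and 154.2 CPM in wildtypes, 0.69 (0.57 to 0.80), and at 0.19 on the dermal lists.

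**Figure D5:**
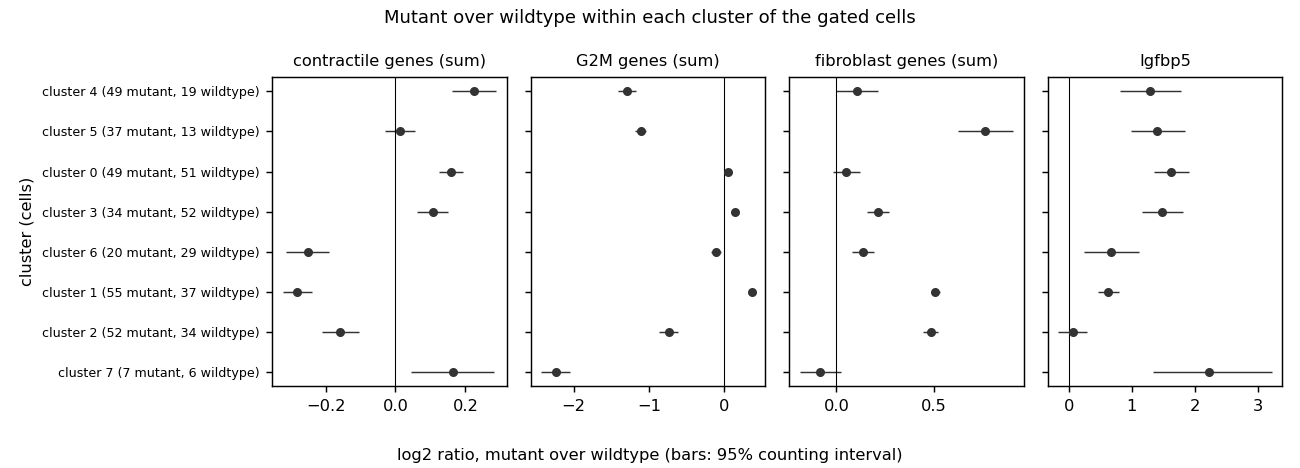
Log2 ratio, mutant over wildtype, within each cluster of the gated cells for the summed contractile, G2M and fibroblast genes and for Igfbp5, with 95% counting intervals and the number of cells beside each cluster. Igfbp5 lies between 1.28 and 1.63 in clusters 4, 5, 0 and 3, and the contractile sum between -0.28 and 0.22 in every cluster. The contractile sum includes broadly expressed members and does not give the direction of single contractile genes.

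Counts of Notch and other vessel signalling genes are set beside all genes, of which 6.57% were higher and 1.85% lower in mutant gated cells. Of 16 Notch pathway genes 4 were higher in mutants and none lower, with a median of 0.35 in gated cells and 0.22 in the Rgs5-high clusters. Jag1 stood at 43.9 CPM in mutants and 27.9 CPM in wildtypes, a log2 ratio of 0.66 (0.39 to 0.93), and Nrip2 had 146 and 24 UMIs in mutants and wildtypes, 2.01 (1.38 to 2.70). Epas1, a hypoxia-inducible factor, had 126 and 39 UMIs, 1.10 (0.57 to 1.65). The direct Notch targets Heyl and Hey1 had log2 ratios of -0.08 (-0.25 to 0.09) and -0.004 (-0.43 to 0.43). Of 23 angiopoietin, VEGF and other vessel signals 7 were higher and 1 lower, with a median of 0.29. In the Rgs5-high clusters 3 of 20 were higher and none lower, with a median of 0.06, where 5.53% of all genes were higher. Cxcl12 stood at 97.9 CPM in mutants and 55.0 CPM in wildtypes, 0.83 (0.65 to 1.02), and its receptor Cxcr4 at 14.8 and 23.8 CPM, -0.68 (-1.03 to -0.33). Cxcl12 is also a leading gene of the fibroblast-rich cluster 2, and stood at 172.6 and 84.9 CPM on the mutant and wildtype dermal lists. Angpt1 had a log2 ratio of 0.66 (0.37 to 0.94), and Pdgfb 0.94 (0.35 to 1.57).

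Among receptors, channels and matrix genes most members lay within 1.5-fold, with 6.57% of all genes higher and 1.85% lower in gated cells, and 5.53% and 2.77% in the Rgs5-high clusters. Of 19 vasoactive receptor and cyclic GMP genes 4 were higher and 1 lower in mutants, and in the Rgs5-high clusters 7 of 16 were higher and none lower. Prkg1, the kinase that cyclic GMP activates, stood at 27.8 CPM in mutants and 13.9 CPM in wildtypes, a log2 ratio of 1.0 (0.63 to 1.37). Of 18 channel and calcium genes 5 were higher, among them the calcium channel Cacna1h with 52 UMIs in mutants and 8 in wildtypes. Of 28 basement membrane and integrin genes 4 were higher. Of 37 transcription factors 7 were higher and none lower, and in the Rgs5-high clusters 3 of 30 were higher and 3 lower. Ebf3 had 259 UMIs in mutants and 57 in wildtypes, 1.59 (1.17 to 2.03), Klf4 stood at 54.9 and 19.7 CPM, 1.48 (1.18 to 1.78), and Tcf15 at 28.4 and 14.4 CPM, 0.98 (0.62 to 1.35). Klf4 is also a leading gene of the fibroblast-rich cluster 1, at 117.4 CPM there against 18.8 CPM in the other gated cells.

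Several Wnt targets were lower in the mutant gated cells, at low counts. Of 11 measured Wnt/beta-catenin targets none was higher and 4 were lower, with a median of -0.43. Over all genes 6.57% were higher and 1.85% lower. On the dermal lists 10 of 14 were lower, with a median of -0.86, where 4.46% of all genes were lower. Lef1, a transcription factor of the pathway and its target, had 31 UMIs in mutants and 58 in wildtypes, a log2 ratio of -1.50 (-2.18 to -0.85), and -2.97 on the dermal lists. Wif1 had 19 UMIs in mutants and 43 in wildtypes, -1.77 (-2.63 to -0.96), and Sp5 had 19 and 42 UMIs in mutants and wildtypes, -1.74 (-2.60 to -0.93). Tcf7 had 31 and 41 UMIs in mutants and wildtypes, -1.0 (-1.72 to -0.29). The summed targets were lower in mutants in all 8 clusters, with log2 ratios from -0.93 in cluster 7 to -0.11 in cluster 6. The intervals of clusters 5 and 6 included 0. Over all gated cells the sum held 5035 mutant and 4081 wildtype UMIs, most from members other than Lef1, Wif1, Sp5 and Tcf7. It therefore does not give the direction of these genes in each cluster. In the Rgs5-high clusters 1 of 6 measured targets was lower, where 2.77% of all genes were lower.

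Cell cycle genes did not pass the threshold in the gated cells as a whole, where 6.57% of all genes were higher and 1.85% lower. None of 35 mitotic (G2M) genes passed 1.5-fold in gated cells, with a median of -0.17, and none of 30 S phase genes did. On the dermal lists 16 of 35 mitotic genes were lower, with a median of -0.55, where 4.46% of all genes were lower. In the Rgs5-high clusters 4 of 35 were lower, with a median of -0.39, where 2.77% of all genes were lower. The mitotic sum was 1236 CPM in mutant and 3027 CPM in wildtype cells of cluster 4, a log2 ratio of -1.29 (-1.41 to -1.17), and 4365.3 and 9402.6 CPM in cluster 5, -1.11 (-1.18 to -1.03). In clusters 0 and 3 it was 0.05 and 0.14. Cluster 3, led by mitotic genes, held 11.2% of mutant and 21.6% of wildtype gated cells. The part of this share in the ratios over clusters was not tested. Ube2c, a mitotic ubiquitin-conjugating enzyme, stood at 343.5 CPM in mutants and 502.8 CPM in wildtypes, -0.55 (-0.62 to -0.48).

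BMP response, stress and hypoxia genes are set here against 6.57% of all genes higher and 1.85% lower in mutant gated cells, and 5.53% and 2.77% in the Rgs5-high clusters. In all gated cells 2 of 9 BMP response genes were higher in mutants, with a median of 0.15, and in the Rgs5-high clusters 6 of 8, with a median of 0.66. Id3 stood at 227.2 CPM in mutants and 172.0 CPM in wildtypes, a log2 ratio of 0.40 (0.29 to 0.51), at 0.71 (0.55 to 0.87) in the Rgs5-high clusters and at -0.75 on the dermal lists. Id2 had a log2 ratio of 0.61 (0.33 to 0.90). Of 16 dissociation stress genes 2 were higher, with a median of -0.02, and Fosb stood at 65.1 CPM in mutants and 24.6 CPM in wildtypes, 1.40 (1.14 to 1.67). Of 18 hypoxia and glycolysis genes 2 were higher and 1 lower. Ldha, just short of 1.5-fold and so not counted, stood at 409.2 and 613.8 CPM in mutants and wildtypes, -0.58 (-0.65 to -0.52). The stress and hypoxia counts lie near the shares of all genes.

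Fibroblast genes differed between genotypes in both cell sets, in the Rgs5-high clusters in both directions. Of 23 measured, 9 were higher in mutant gated cells and 2 lower, with a median of 0.48, and on the dermal lists 12 of 25 were higher and 1 lower, with a median of 0.57, where 8.57% of all genes were higher and 4.46% lower. They summed to 16996.9 CPM in mutant and 11876.6 CPM in wildtype cells outside the Rgs5-high clusters, a log2 ratio of 0.52 (0.50 to 0.54), and to 3260.4 and 3153.2 CPM within them, 0.05 (0.01 to 0.09). Within the Rgs5-high clusters 5 of 19 were higher and 4 lower, where 5.53% of all genes were higher and 2.77% lower, with Col14a1 at a log2 ratio of 1.76 (0.89 to 2.74) and Crabp1 at -0.86 (-1.03 to -0.68). In cluster 5 the sum was 3001.6 CPM in mutants and 1768.8 CPM in wildtypes. Their part in the other differences was not tested.

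Of the 10 highest ratios among genes with 100 or more UMIs, Nrip2 and Myocd are given above. Morn2, Gdf10, Pcdh7, Hist1h3f, Lgi1 and St3gal1 had log2 ratios of 1.62 to 1.84 in gated cells and 1.43 to 2.48 in the Rgs5-high clusters. Dmrt2 and S100b, at 1.67 and 1.66, had -0.61 and -1.19 there. In the Rgs5-high clusters the receptor tyrosine kinase Kit was highest, at 2.49 (1.58 to 3.54), followed by Nrip2, Lgi1 and Ebf3, then Slc6a9, Ndrg2, Fosb, Sytl2, Map3k7cl and Igfbp5. Of the lowest there, Slc16a3, a lactate transporter, stood at -1.59, Tmem100 at -1.50, and the nuclear envelope receptor Lbr at -1.33, with Hmga2, Car2, Tspan5 and Twist2 from -1.31 to -0.98.

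The 3 lowest genes differed as much on the dermal lists. Gm10320 had 8 UMIs in mutant and 879 in wildtype gated cells, a log2 ratio of -7.38 in gated cells and -7.04 on the dermal lists. AA465934 stood at -4.56 in gated cells and -4.93 on the dermal lists, and Tpm3-rs7 at -4.39 and -4.43. The next ones rested on few cells. Dct and Pmel, pigment cell genes, lay in 5 and 7 wildtype cells, Ptgds in 6, and the mast cell genes Cma1 and Cpa3 in 11 and 10, with 97.99% of the wildtype Cpa3 UMIs in 3 cells. Stmn2 and Mt2, at -2.07 and -1.93, complete the 10 lowest.

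Markers of other cell types were summed over the gated cells, 5 or more genes a type. Macrophage markers summed to 13.2 CPM in mutants and 33.8 CPM in wildtypes, keratinocyte markers to 24.9 and 52.3 CPM, skeletal muscle markers to 53.1 and 22.8 CPM, melanoblast markers to 5.73 and 59.6 CPM, and mast cell markers to 22.4 and 99.5 CPM. Haemoglobin and other erythroid markers had 129 UMIs in mutants and 5411 in wildtypes, and 25 and 12 in the Rgs5-high clusters. Of the wildtype UMIs, 4063 of 4084 for Hbb-y and 1269 of 1279 for Hba-x lay in 1 cell. Members of other sums also lay in few cells. In mutants 1 cell held 77 of 79 Krt14 UMIs and 1 cell all 29 C1qb UMIs. In wildtypes the highest cell held 33 of 118 and 33 of 80. The 7 endothelial markers summed to 38.5 CPM in mutants and 43.6 CPM in wildtypes, and 43 mutant cells (14.2%) and 20 wildtype cells (8.30%) had 2 or more of them. Between 0.330% and 3.73% of gated cells had 2 or more markers of any of the non-endothelial, non-fibroblast types in either library. At 0 were 1 melanoblast and 1 mast cell marker in mutants, and 1 erythroid and 1 mast cell marker in wildtypes. The part of these markers in the differences was not tested.

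At equal depth the shares of cells told which genes were in more cells. Each cell was thinned to 17500 UMIs, which kept 259 mutant and 181 wildtype gated cells. Myh11 was found in 24.3% (19.2 to 30.02) of mutant cells and 9.94% (6.0 to 15.3) of wildtype cells, and in no macrophage of either library. Mylk was found in 60.6% (54.4 to 66.6) and 47.5% (40.1 to 55.0) of mutant and wildtype cells, against 2.32% and 6.25% of macrophages. Tagln was found in 60.2% and 60.8% of mutant and wildtype cells, and Rgs5 in 54.1% and 53.0%. Igfbp5 was found in 75.3% and 59.1%, over macrophage shares of 15.1% in mutants and 39.1% in wildtypes. Without thinning, Myh11 was found in 26.4% and 12.4% of mutant and wildtype cells.

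Among single cells the fibroblast and mural genes ran against each other. Over the 259 mutant and 181 wildtype thinned cells, Spearman's rho between the fibroblast marker sum and Rgs5 was -0.67 in mutants and -0.53 in wildtypes, and between the fibroblast marker sum and Ndufa4l2 -0.73 and -0.67. For the fibroblast marker sum, rho in mutants and wildtypes was -0.30 and -0.36 with Kcnj8, and -0.29 and -0.37 with Abcc9. With Pdgfrb it was -0.35 and -0.24. Rgs5 and Ndufa4l2 had a rho of 0.77 in mutants and 0.57 in wildtypes. The contractile sum and the fibroblast sum had a rho of -0.59 in mutants and -0.31 in wildtypes. Cells of a library share its preparation, and Rgs5, Kcnj8, Abcc9 and Pdgfrb are among the genes that chose them, so these are descriptions.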

How the data were processed

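Skin cells of 1 Wntless mutant and 1 wildtype library were profiled on the 10x Chromium 3' v3.1 platform. The authors deposited matrices of UMI counts (genes by barcodes), which the file headers credit to Cell Ranger 6.1.2, and the submitters' processing notes name mm10 and Seurat. The deposited barcode, gene and dermal list files hold other information, names with no measured unit. How the authors chose the dermal cells is not given in the sources used here. Members and gene lists were chosen with earlier results of these data known, so no list count is independent support.

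UMIs were summed per class and library. Levels are CPM with exact Poisson intervals. Ratios are log2, mutant over wildtype or gated over dermal list, with exact conditional binomial 95% intervals. A gene at 0 in a class was set at 3 counts. Shares have exact Clopper-Pearson intervals. Genes needed 50 UMIs over both libraries, or a mean of 10 CPM in both, and the 11 selecting genes were left out of counts. Clusters came from scanpy 1.11.5 (counts normalised to 10000, 1500 variable genes, 20 components, 15 neighbours, Leiden resolution 0.5). Scrublet called 212 of 7373 mutant and 271 of 7764 wildtype barcodes, 23 and 24 of them gated; called doublets were kept. An alternative left out the top 8% of scores, which held 25.7% of the gated cells of each library. Genes were named by rule: the 15 highest and 5 lowest over the dermal list, the 10 highest and lowest between genotypes, the 5 widest ratios of each list at 50 UMIs or above, and the relatives of Higd1b, Ndufa4l2, Cox4i2 and Rgs5. Genes shown per cluster, in vessel signals or as further examples of a list were chosen after their values were seen. Promoters are from RefSeq (GRCm38.p6), coordinates from GENCODE (GRCm38). The ratio step was tested on simulated counts.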

Additional observations from a re-analysis of the deposited data

Results flagged for a closer look

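Among the genes named by rule, those whose mutant over wildtype log2 ratio passed 1.5-fold in opposite directions in gated and dermal list cells are given here. Other measured genes were not searched for this, and the differences between the classes were not tested. Pdlim3, a Z-disc protein, stood at 1.99 in gated cells and -3.61 on the dermal lists. Kit stood at 0.93 in gated cells and -0.67 on the dermal lists, and at 2.49 in the Rgs5-high clusters. Actc1, cardiac actin, stood at 1.41 in gated cells and -1.13 on the dermal lists, with 60.9% of its mutant UMIs and 58.8% of its wildtype UMIs in 3 cells each. Cpa3, a mast cell protease, stood at -2.20 in gated cells and 1.30 on the dermal lists, with 87.0% of its mutant UMIs and 97.99% of its wildtype UMIs in 3 cells each.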

How the results depend on the processing

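No paired analysis was possible because each genotype has 1 library. Of 1960 alternative values of 165 results, 1605 moved by less than their counting interval or 1.5 times and 344 moved further. The other 11, all of named genes, turned direction. A turn was counted only for a ratio past the fold threshold that also left its interval. Shares, gene counts and list medians under the threshold could not be counted as turned. Among named genes 14 values changed sign when size was disregarded. The gated share, 4.11% in mutants and 3.10% in wildtypes, was 3.16% and 2.63% with 5 of 8 markers, 3.53% and 2.68% without Acta2, 6.21% and 10.8% with the gate on thinned counts, 3.30% and 2.50% without the top 8% of Scrublet scores, and 2.29% and 1.74% in the Rgs5-high clusters, and 2.72% in wildtypes without cells holding 2 markers of another type. Genes 1.5-fold higher and lower in mutants, 687 and 193, numbered 1035 and 360 in thinned cells, 1152 and 452 at a minimum of 20 UMIs and 389 and 95 at 100 UMIs. Genes 2-fold higher and lower in gated over dermal list cells, 239 and 358, numbered 136 and 237 at 20 CPM, and 630 were lower with the Rgs5-high clusters. Without the top 8% of Scrublet scores, 724 genes were higher and 170 lower, and 396 of the 687 and 69 of the 193 were shared. The contractile median, 0.36, was 0.58 in the Rgs5-high clusters and 0.085 with clusters weighted alike. The G2M median, -0.17, was -0.33 in thinned cells and -0.39 in the Rgs5-high clusters. The Rgs5-high clusters turned Dmrt2 to -0.61, S100b to -1.19 and Ptgds to 0.98. Leaving out cells with markers of another type turned Ptgds to 0.86 and Cpa3 to 0.27, and leaving out the top Scrublet scores turned Ptgds to 0.93, Cpa3 to 0.48 and Actc1 to -1.66. Cma1 was 0.60 with the gate on thinned counts, Actg2 -0.17 without the contractile-led cluster, and Lmod1 -0.020 with clusters weighted alike. The cause of these changes was not tested. The Rgs5-high, contractile-led, haemoglobin-led and equal-weight settings were added after seeing the data. Depth limits genes such as Wif1, Sp5 and Mustn1, with under 60 UMIs in each library.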
